A study of Mus musculus with 23 samples.

Results

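The genes described here are 42 genes of microglia, complement and inflammation, chosen by name from the 45706 genes of a hippocampal RNA-seq table and found in it by their Ensembl identifiers. They are referred to as members. They comprise 11 homeostatic microglial genes, 8 complement and phagocytic receptor genes, 6 disease-associated and lysosomal genes, 3 antigen presentation genes, 7 interferon-related genes, 5 cytokine and NF-kB genes, and 2 macrophage genes. Per the labels, the RNA came from the hippocampus of female mice that were wild type (Ins2+/+, WT, n = 12 libraries) or homozygous for loss of Ins2 (Ins2-/-, KO, n = 11 libraries). Ins2 encodes an insulin of the mouse. The labels give no age, strain, treatment or other allele for either genotype, and they do not say how the Ins2-/- allele was made. Nothing in them says that each library is a separate animal, so p-values measure the spread between these libraries, which may be partly technical.

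Microglia are the resident macrophages of brain tissue. They survey synapses through receptors such as P2ry12 and Cx3cr1, and they are the main brain source of C1q, which starts the classical complement cascade and tags synapses for removal. In injury, ageing and neurodegeneration they can lower their homeostatic genes and raise lysosomal, lipid and antigen presentation genes. Type I interferon acts on interferon-stimulated response elements in promoters, and so raises antiviral genes such as Ifit1, Ifit3, Isg15, Oasl2 and Bst2, together with Irf7, which amplifies the response.

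Promoter sequences of 5 interferon members and of B2m are shown as a description. Whether promoter sequence has a part in the levels reported here was not tested. Of the 42 members, 32 had a promoter window in the RefSeq table for GRCm38.p6, reaching from 250 bases before to 50 after the gene start. The core of the interferon-stimulated response element was searched on both strands as GAAA, any 2 bases and GAAA, with overlapping matches allowed. It was found in the windows of 7 of these 32 members, 4 of them among the 7 interferon members (Ifit1, Ifit3, Isg15 and Bst2), the others being B2m, Aif1 and Ctss. By comparison, 3.46% of all 27025 genes with a window held it in at least 1 window (2.98% of all 32851 windows), as did 9 of 30 other interferon-responsive genes. The stretches below run 5′ to 3′ on the strand of the gene, from 180 to 31 bases upstream of its start, with every match in capitals (a match on the opposite strand reads TTTC, any 2 bases and TTTC). They lie at chr19:34640709-34640858 (plus strand), chr19:34583349-34583498 (plus strand), chr4:156200849-156200998 (minus strand), chr8:71537503-71537652 (minus strand), chr2:122147507-122147656 (plus strand) and chr5:114896754-114896903 (plus strand).

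Ifit1: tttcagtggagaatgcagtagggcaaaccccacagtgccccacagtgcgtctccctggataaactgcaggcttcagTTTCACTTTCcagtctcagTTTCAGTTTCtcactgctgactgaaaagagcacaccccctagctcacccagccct

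Ifit3: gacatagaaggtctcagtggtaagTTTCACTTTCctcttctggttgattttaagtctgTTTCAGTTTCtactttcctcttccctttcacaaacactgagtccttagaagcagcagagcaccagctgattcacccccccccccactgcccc

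Isg15: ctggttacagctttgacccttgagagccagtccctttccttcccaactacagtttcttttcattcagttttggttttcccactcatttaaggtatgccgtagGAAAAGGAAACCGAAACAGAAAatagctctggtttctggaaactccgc

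Bst2: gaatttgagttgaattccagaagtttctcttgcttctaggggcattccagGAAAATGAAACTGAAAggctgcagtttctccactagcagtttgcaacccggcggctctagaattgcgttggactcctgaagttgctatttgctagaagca

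B2m: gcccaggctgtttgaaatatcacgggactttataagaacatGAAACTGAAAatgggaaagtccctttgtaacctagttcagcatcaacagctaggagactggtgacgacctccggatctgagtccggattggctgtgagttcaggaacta

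Oasl2: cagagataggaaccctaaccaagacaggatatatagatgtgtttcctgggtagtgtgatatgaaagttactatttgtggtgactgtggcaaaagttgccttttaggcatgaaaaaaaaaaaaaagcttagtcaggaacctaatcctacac

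Ifit1 and Ifit3 each held 2 separate matches, Isg15 held 3 overlapping ones and Bst2 held 2 overlapping ones, while B2m held 1. Oasl2, shown for comparison, had no match, nor did Irf7 and Irf8, which says only that these letters are not in the window. The core of the site of PU.1, the transcription factor that defines macrophages and microglia, was searched as GAGGAAGT on both strands. It was found for 1 of 32 members, C1qc, against 2.79% of all genes with a window (2.44% of all windows). A match is a description of the sequence and no measure of binding.

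Values are given in CPM, that is counts divided by library size with edgeR's TMM factors. Library totals ranged from 13792274 to 22953261 counts, so that a count of 0 in a library allows up to 0.1307 to 0.2175 CPM, counting error only. As a check of the labels, Ins2 had 26 counts in 7 of 12 WT libraries (18 of them in WT library 17) and 0 counts in KO, for which the limit is 0.0156 CPM over the group. In a fit of 15828 genes with edgeR's quasi-likelihood test, 2 genes passed a Benjamini-Hochberg adjusted p of 0.05, 0.0126% of those tested, and the median log2 fold change of all genes was 0.0031. Some libraries had high levels of marker genes of other brain regions. The summed level of 11 choroid plexus markers was 3214 to 20387 CPM in 5 libraries (KO 2, 6 and 12, WT 14 and 17), from here on called choroid plexus rich, and 32.4 to 98.4 CPM in the 18 others. The sum of 12 hypothalamic markers was 1552 CPM in KO library 8, against 1.3 to 8.6 CPM in the 22 others, while markers of CA pyramidal cells summed to 262 CPM there against 1010 to 1642 CPM, those of dentate granule cells to 281 CPM against 444 to 801 CPM and those of astrocytes to 3212 CPM against 4187 to 5346 CPM. The markers of KO library 8 thus go against its label of hippocampus, and whether it or the choroid plexus rich libraries hold mixed or mislabelled tissue was not tested. Values without these libraries are given beside several results.

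Of the 42 members, 36 passed the filter on low counts and were tested. Ordered by level per kilobase of exon, the most abundant were the lysosomal protease gene Ctsd (142 CPM per kb), B2m, the light chain of MHC class I (79.2), the protease genes Ctsb (71.3) and Ctss (54.1), and C1qa (37.0) and C1qb (33.8), which encode chains of C1q. B2m and Ctsb did not differ beyond their spread (SD) over libraries, nor did C1qa and C1qb, and from C1qa downwards every neighbour in the order overlapped the next within its spread. Among the interferon members Ifit3 was the highest, at 6.20 CPM per kb, and Irf7 the lowest, at 0.415. The 6 members below the filter were Itgax, Cst7, Il1b, Tnf, Ccl3 and Ccl4, all at or under 0.236 CPM per kb, that of Ccl3.

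No member passed the test between KO and WT: 0 of 36 were called by edgeR's quasi-likelihood test, against 0.0126% of all genes, and the smallest adjusted p was 0.781. DESeq2 and limma voom also called 0. In KO, 22 members were above WT and 14 below, with a median log2 fold change of 0.022, close to the 0.0031 of all genes. An unadjusted p below 0.05 was reached by 2 of 36 members, against 5.74% of all genes tested: Cd68, higher in KO (3.41% of all genes in that direction), and Itgam, lower in KO (2.34%). In bulk tissue, fewer cells of a type and less RNA per cell cannot be told apart.

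**Figure D1:**
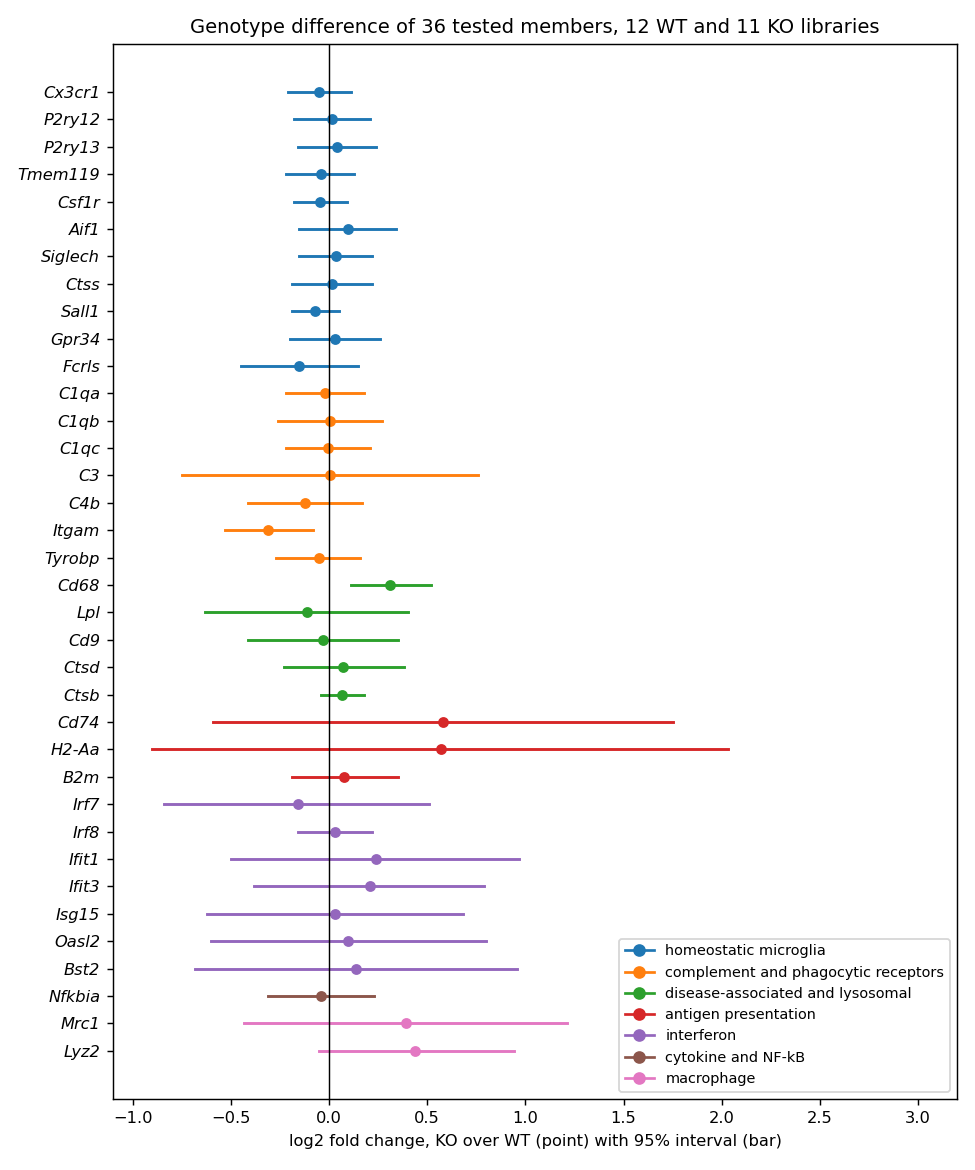
Log2 fold change of each tested member between KO (n = 11) and WT (n = 12) libraries from edgeR (points), with 95% intervals (bars), coloured by functional group. All 11 homeostatic microglial genes lie between -0.15 and 0.10, Cd74 and H2-Aa have the widest intervals, and no member passed an adjusted p of 0.05.

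No homeostatic microglial gene passed the test between genotypes. Their log2 fold changes ranged from -0.15 for Fcrls, an Fc receptor-like gene, to 0.10 for Aif1, which encodes the microglial protein Iba1, with a median of 0.015 and standard errors of 0.058 to 0.143. Their summed level was 293 to 413 CPM in WT (median 354) and 277 to 413 CPM in KO (median 342), and the lowest value was that of KO library 8. All 11 genes had counts in every library, and the sums of the genotypes overlapped over nearly their whole range.

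Cx3cr1, the fractalkine receptor, was at 40.8 to 56.5 CPM in WT (median 46.4) and 35.9 to 59.5 CPM in KO (median 45.6). Its 95% interval for the log2 fold change was -0.21 to 0.11. P2ry12, the purinergic receptor that guides microglial processes, was at 27.0 to 38.5 CPM in WT (median 33.1) and 20.3 to 44.9 CPM in KO (median 33.8). Both ends of the KO range belonged to single libraries, KO 8 at the bottom and KO 16 at the top, and the same 2 libraries bounded Cx3cr1, P2ry13, Gpr34 and Fcrls in KO. For P2ry12 the interval was -0.18 to 0.21. Csf1r, the receptor for colony stimulating factor on which microglia depend, and which overlaps Hmgxb3 on the opposite strand over 873 bases, gave -0.18 to 0.09, and Sall1, a transcription factor of microglial identity, gave -0.19 to 0.05. The interval of Tmem119, a microglial surface protein, was -0.22 to 0.13. Over all 11 homeostatic genes the 95% intervals reached from a fold of 0.734 (Fcrls) to one of 1.26 (Aif1). Of 25 other microglial genes, 9 were above 0 and 16 below, none was called, and the median was -0.040.

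No complement gene passed the test between genotypes, and C3 varied widely between libraries of the same genotype. C1qa was at 30.4 to 49.7 CPM in WT (median 38.9) and 27.4 to 49.5 CPM in KO (median 37.3), with a log2 fold change of -0.018 (SE 0.0948). C1qb and C1qc, the other chains of C1q, gave 0.0072 (SE 0.128) and -0.0042 (SE 0.103). Across the 23 libraries C1qa and C1qb, the only chains examined as a pair, had r = 0.77 and rho = 0.75 (permutation p = 3e-05 and 0.0001). C3, the central complement protein, was at 0.873 to 9.93 CPM in WT (median 5.52) and 1.48 to 14.8 CPM in KO (median 3.97), with a log2 fold change of 0.0036 (SE 0.362). Without the 5 choroid plexus rich libraries it was -0.35 (SE 0.380), and without these and KO library 8 it was -0.45 (SE 0.398), neither past the test. The lowest values of C3 were in WT library 20 and KO library 18 and the highest in the choroid plexus rich KO library 6, so the genotypes overlapped over most of the range.

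C4b, the complement component made in the brain mainly by glia, was at 45.4 to 117 CPM in WT (median 101) and 48.4 to 111 CPM in KO (median 86.4). Its log2 fold change was -0.12 (SE 0.138), and only 2 of 11 KO libraries were above the WT median. Without the 5 choroid plexus rich libraries C4b gave -0.21 (SE 0.163), also not past the test. C4b shares 95.965% of bases over 5378 aligned bases with C4a, so its counts are uncertain where the counting could divide reads. Tyrobp, the adaptor through which Trem2 signals, gave -0.053 (SE 0.102). Of 12 other complement genes tested, 11 were above 0, none was called, and the median was 0.099. In 4 of the choroid plexus rich libraries (14 and 17 of WT, 6 and 12 of KO), 7 or 8 of these 12 exceeded 1.5 times their median over the 23 libraries, as did 4.44% (WT 14) to 9.83% (KO 12) of all tested genes. Without the 5 rich libraries 8 were above 0 and 4 below, and without these and KO library 8 the split was 7 and 5, with a median of 0.045.

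Itgam was the complement receptor with the largest difference. It lies on chr7:128062640-128118491 (GRCm38) and encodes CD11b, the alpha chain of complement receptor 3, with which microglia bind C3-tagged material. Levels were 16.4 to 28.3 CPM in WT (median 22.5, mean 22.4 ± 3.32, SD, n = 12) and 12 to 25.5 CPM in KO (median 17.1, mean 18.1 ± 4.01, SD, n = 11). The ranges overlapped, but 4 KO libraries lay below the lowest WT library and 2 above the WT median. The log2 fold change was -0.31 (SE 0.108, edgeR p = 0.00954, adjusted p = 0.781), which does not pass. The unadjusted p stayed below 0.05 in each of 23 fits without 1 library and in 10 of 10 other alternatives, with adjusted p from 0.166 to 0.967. Without the 5 choroid plexus rich libraries it was -0.37, and without these and KO library 8 it was -0.34. Itgam shares 68.67% of its exon bases with the annotated gene Gm49368 on the same strand. The deposited counts hold no entry for Gm49368, so they show no reads divided between it and Itgam. The related receptor chain Itgax, a marker of activated microglia, was at 0.0621 to 1.21 CPM in WT and 0.237 to 1.04 CPM in KO, below the filter over all libraries.

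Cd68 was the other member with a small unadjusted p, in the opposite direction. It lies on chr11:69664213-69666153 and encodes a lysosomal membrane protein of phagocytes. Levels were 3.94 to 6.42 CPM in WT (median 4.72, mean 4.83 ± 0.746, SD, n = 12) and 4.50 to 7.08 CPM in KO (median 6.40, mean 6.01 ± 0.979, SD, n = 11). In KO, 10 of 11 libraries were above the WT median and 5 above the highest WT library, the exception below the median being KO library 8. The log2 fold change was 0.31 (SE 0.0988, edgeR p = 0.00408, adjusted p = 0.781). It was 0.36 without KO library 8 and 0.24 without the 5 choroid plexus rich libraries, and the unadjusted p stayed below 0.05 in each of 23 fits without 1 library. The adjusted p ranged from 0.132 to 0.967 over the alternatives.

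The remaining disease-associated and lysosomal genes had no member called. The protease genes gave log2 fold changes of 0.074 (SE 0.148) for Ctsd and 0.067 (SE 0.0537) for Ctsb, and Cd9, a tetraspanin, gave -0.028 (SE 0.182). Ctsd was at 244 to 635 CPM in WT (median 293) and 234 to 593 CPM in KO (median 321), with the maxima in the choroid plexus rich WT library 17 and KO library 12. Ctsd shares 34.37% of its exon bases with Gm49369 on the same strand, for which the deposited counts hold no entry. Ctsb overlaps Fdft1 on the opposite strand over 774 bases, so the counts of Ctsb are uncertain. Lpl, the lipoprotein lipase, was at 50.6 to 97.6 CPM in 22 libraries and at 4.74 CPM in KO library 8. Cst7, a cystatin induced in activated microglia, was at 0.0653 to 0.476 CPM in WT and 0 to 0.435 CPM in KO. Of 18 other disease-associated genes none was called. Igf1, insulin-like growth factor 1, averaged 7.36 ± 1.06 CPM in WT (SD, n = 12), against 8.72 ± 1.53 CPM in KO (SD, n = 11), a log2 fold change of 0.25 (edgeR p = 0.0170, adjusted p = 0.781). Timp2, an inhibitor of matrix proteases, gave 0.36 (edgeR p = 0.0387, adjusted p = 0.781) over all libraries and 0.19 (edgeR p = 0.122, adjusted p = 0.967) without KO library 8.

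Class II antigen presentation and macrophage genes had their highest levels in the choroid plexus rich libraries. Cd74, the invariant chain that escorts MHC class II, was at 5.92 to 26.7 CPM in the 5 choroid plexus rich libraries (median 18.1) and 0.533 to 8.46 CPM in the 18 others (median 2.40). H2-Aa, a chain of MHC class II, had medians of 9.61 and 0.757 CPM in the same sets. For Mrc1, the mannose receptor of tissue macrophages, the medians were 4.72 and 2.04 CPM, and for Lyz2, lysozyme, 15.3 and 9.90 CPM. The ranges of these 4 genes overlapped between the sets. The summed level of 10 border macrophage markers was 23.7 to 45 CPM in the rich libraries and 12.8 to 31.8 CPM in the others, with none of the 10 at 0 across either set, and that of 7 meningeal and fibroblast markers 118 to 358 CPM against 28.3 to 157 CPM. The part of this RNA in the genotype values was not tested beyond fits that leave out libraries or use a choroid plexus covariate.

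By genotype, Cd74 was at 1.05 to 19.1 CPM in WT (median 3.01) and 0.533 to 26.7 CPM in KO (median 4.35). Its log2 fold change was 0.58 (SE 0.563, edgeR adjusted p = 0.812) over 23 libraries, 0.17 without the 5 rich libraries and -0.15 without these and KO library 8. H2-Aa gave 0.57 (SE 0.707) and, in the 17 libraries, -0.32 (SE 0.645). B2m, for class I, gave 0.077 (SE 0.130). Lyz2 was at 3.79 to 15.5 CPM in WT (median 9.74) and 6.16 to 22.8 CPM in KO (median 12.8), a log2 fold change of 0.44 (SE 0.237, edgeR p = 0.0741, adjusted p = 0.781) that was 0.26 in the 17 libraries. It shares 95.807% of bases over 1264 aligned bases with Lyz1, to which few counts were given (10.4, against 4669.6 for Lyz2). Mrc1 went from 0.39 (SE 0.394) to -0.04 (SE 0.413). Cd74 and H2-Aa moved together over the libraries (r = 0.97, rho = 0.97, permutation p = 1e-05, the smallest that 100000 permutations can give), also among the 18 libraries that were not choroid plexus rich (r = 0.93). Mrc1 and Lyz2 had r = 0.85 and rho = 0.89, and r = 0.77 in those 18. Among 14 other antigen presentation genes none was called, and H2-DMa, which loads peptides onto class II, gave -0.27 (edgeR p = 0.00941, adjusted p = 0.781). Of these 14 genes, 9 were above 0 and 5 below over 23 libraries (median 0.11). In the 17 libraries the split was 2 above and 12 below, with a median of -0.25.

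**Figure D2:**
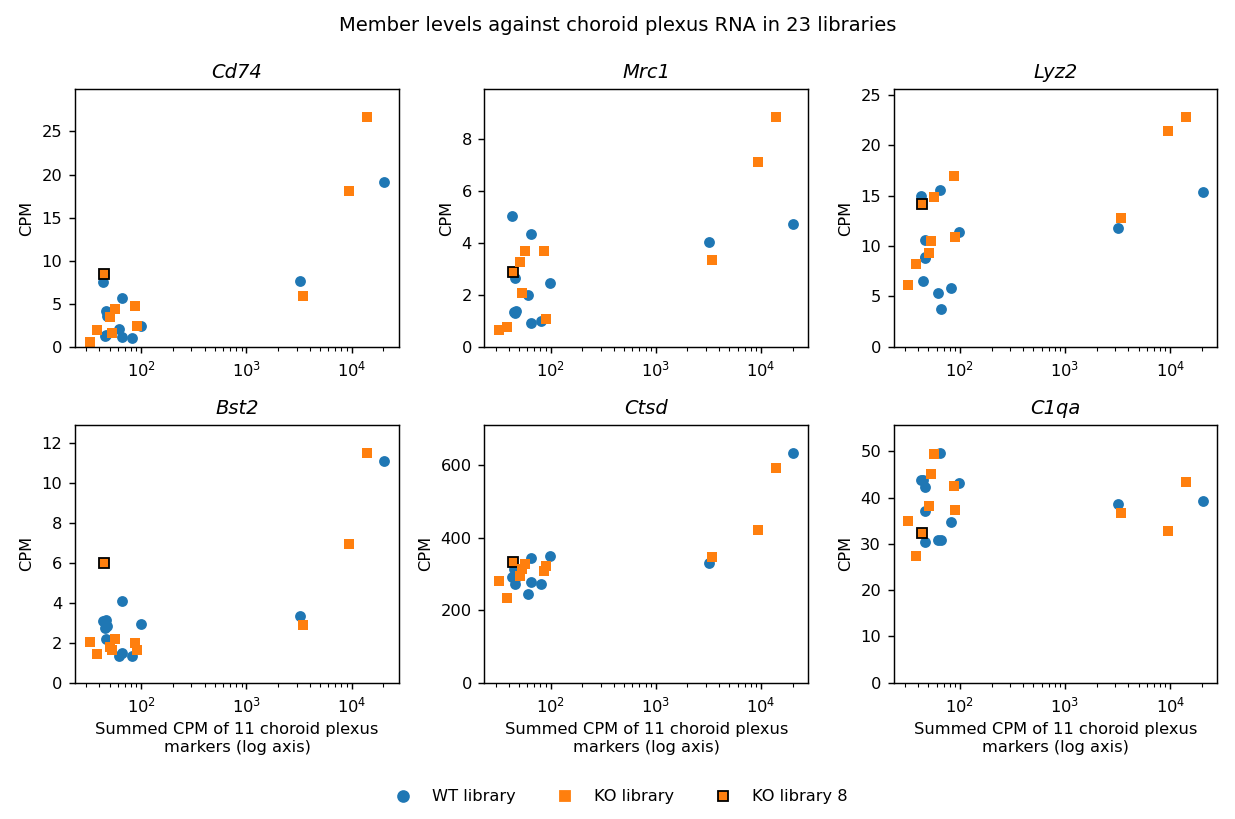
CPM of 6 members against the summed CPM of 11 choroid plexus markers (log axis) in each WT and KO library, with KO library 8 outlined. Cd74, Mrc1, Lyz2, Bst2 and Ctsd are highest in libraries at the right, above 3214 CPM of markers, whereas C1qa ranges from 27.4 to 49.7 CPM with its extremes at the left.

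No interferon member passed the test between genotypes over all 23 libraries, and single libraries spread them widely. Their log2 fold changes had a median of 0.099 and ran from -0.16 for Irf7 to 0.24 for Ifit1, and 0 of 7 had an unadjusted p below 0.05. Ifit1, which binds foreign RNA, was at 1.17 to 4.59 CPM in WT (median 2.30) and 1.13 to 12.4 CPM in KO (median 1.94). Ifit3, its partner, was at 5.14 to 17.7 CPM in WT (median 9.26) and 4.57 to 33.8 CPM in KO (median 8.88). Oasl2, of the oligoadenylate synthetase-like family, was at 2.01 to 7.87 CPM in WT (median 3.72) and 1.84 to 17.9 CPM in KO (median 2.75). For each of the 3 genes the KO maximum was KO library 8, and the KO median lay below the WT median. Irf7 was at 0.604 to 2.69 CPM in WT (median 1.77) and 0.572 to 4.08 CPM in KO (median 0.823), and Isg15, a ubiquitin-like modifier, at 0.671 to 1.89 CPM in WT (median 1.18) and 0.188 to 3.96 CPM in KO (median 1.01). Irf8, a factor that microglia use constitutively, had a narrow range of 4.23 to 6.87 CPM over all libraries and a log2 fold change of 0.030 (SE 0.0901). Ifit3 shares 97.824% of bases over 1700 aligned bases with Ifit3b, and its counts are uncertain for that reason. Isg15 shares 95.228% over 482 bases with AC151275.1, for which the deposited counts hold no entry.

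**Figure D3:**
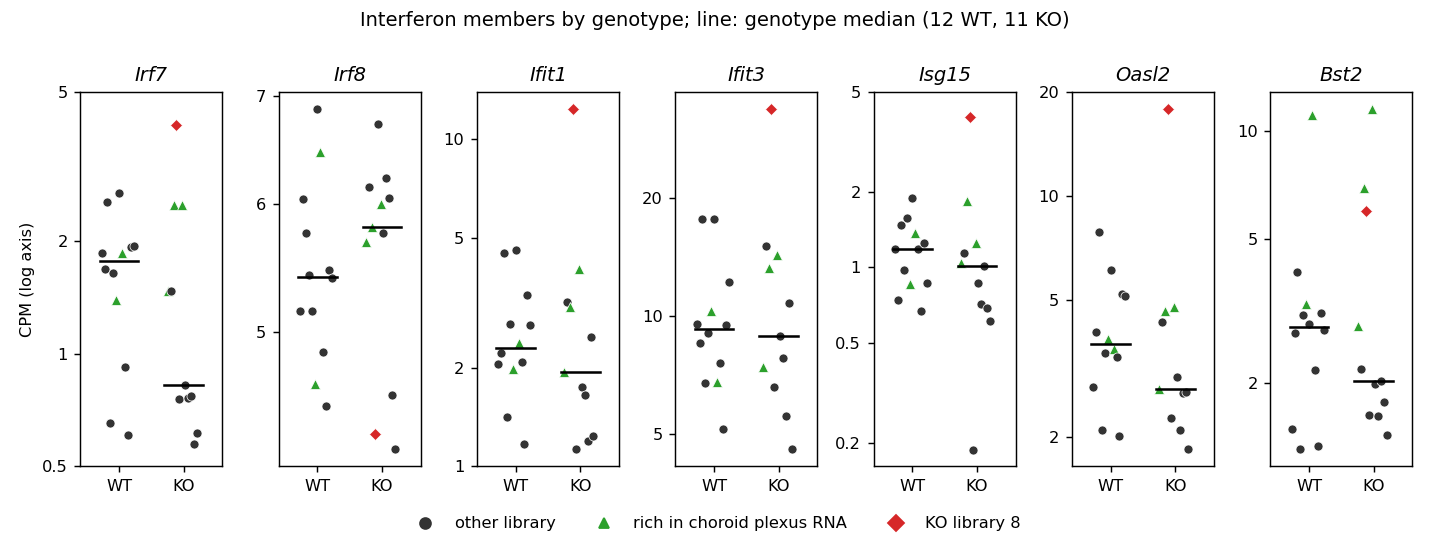
CPM (log axis, a scale of its own for each gene) of the 7 interferon members in WT (n = 12) and KO (n = 11) libraries, with the genotype median as a line and choroid plexus rich libraries and KO library 8 marked. KO library 8 is the highest of all for Irf7, Ifit1, Ifit3, Isg15 and Oasl2, and Bst2 is highest in choroid plexus rich WT library 17 and KO library 12.

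Libraries with a raised response were named where at least 3 members of a group (2 for groups of 3 or fewer) exceeded 1.5 times their median over the 23 libraries. For the antigen presentation group these were WT libraries 5, 11, 14 and 17 and KO libraries 2, 6, 8 and 12, in each of them through Cd74 and H2-Aa, and for the macrophage group KO libraries 6 and 12. The share of all tested genes above 1.5 times their median was 2.78% in WT library 11, 3.76% in KO library 2 and 4.44% in WT library 14. For the interferon group these were WT libraries 5 and 15 and KO libraries 6, 8 and 12. KO library 8 stood highest, with 6 of 7 members raised and a median of 3.74 times the gene's usual level. Ifit1 was at 5.76 times its median over the other 22 libraries there, Oasl2 at 5.18 times, Isg15 at 3.87 times, Ifit3 at 3.77 times and Irf7 at 2.78 times. Of 34 other interferon-responsive genes, 24 were also above 1.5 times their median in this library, as were Cd74 (2.35 times), H2-Aa (3.29 times) and 9 of 14 other antigen presentation genes. The same library differed across the transcriptome, with 15.5% of all tested genes above 1.5-fold and 14.6% below, against at most 9.83% and 8.92% in any other library. Its hypothalamic markers were at 1552 CPM, and their part in the interferon values was not tested.

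In KO library 8 none of the 11 homeostatic genes was above 1.5 times its median. Of the 11, 3 were below their median by more than 1.5-fold (Fcrls, P2ry12 and P2ry13), as were 14.6% of all tested genes. Cx3cr1, P2ry12, P2ry13, Gpr34 and Fcrls were the lowest of the 23 libraries there, with Fcrls at 6.36 CPM against 12.7 to 26.0 CPM in the others and P2ry12 at 20.3 CPM against 27.0 to 44.9 CPM. The 25 other microglial genes summed to 460 CPM, within the 374 to 538 CPM of the others, with 1 of them above 1.5 times its median (Adgrg1) and 4 as far below (Cd53, Cyth4, Fcgr3 and Mertk). Of 29 other cytokine and NF-kB genes, 3 were above 1.5 times their median in this library and 10 as far below. Inside the range of the others but low were Tmem119, Csf1r and C1qc (rank 22 of 23 from the highest), C1qb and Tyrobp (21), Itgam (20) and C1qa (19, at 32.4 CPM). Ctss, a lysosomal protease, at 75.2 CPM (rank 9), C3 (10) and C4b (11) were nearer the middle. Levels relative to the 23-library median had a median of 0.788 for the homeostatic group and 0.777 for the complement group. Markers of blood monocytes and neutrophils summed to 2.58 CPM and lymphocyte markers to 2.13 CPM, the highest of the 23 libraries but a small sum over 9 and 7 genes.

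WT libraries 5 and 15 had a raised interferon group with choroid plexus markers at no more than 98.4 CPM and hypothalamic markers at no more than 8.6 CPM. Red blood cell markers (5 globin and heme genes) summed to 566 CPM in WT library 5, against 79.1 to 281 CPM in the other libraries, and their part in its interferon values was not tested. In WT library 15 the raised members were Ifit1, Ifit3, Irf7, Isg15 and Oasl2, with a median of 1.82 times the usual level, where 4.81% of all genes were above 1.5-fold. In WT library 5 they were Ifit1, Ifit3, Irf7 and Oasl2, with a median of 1.73 times and 1.65% of all genes, and Cd74 (1.57 times) and H2-Aa (2.41 times) were raised there too. Of the 34 other interferon-responsive genes, 5 were raised in each. In neither library were 3 or more homeostatic genes above 1.5 times their median. In KO library 12, where Bst2, Ifit1, Ifit3 and Irf7 were raised, 18 of the 34 other genes were above 1.5-fold, as were 9.83% of all genes. KO library 6 had Bst2, Irf7 and Isg15 raised, with 10 of the 34 and 7.15% of all genes. WT library 17, also choroid plexus rich, had 17 of the 34 raised, with 8.90% of all genes, but only 1 of the 7 members, Bst2. Libraries in which at least 3 interferon members were below their median by more than 1.5-fold were WT 10 and 20 and KO 9, 16, 18, 21 and 22, where 2.76% (KO 21) to 8.92% (KO 22) of all tested genes were as far below.

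**Figure D4:**
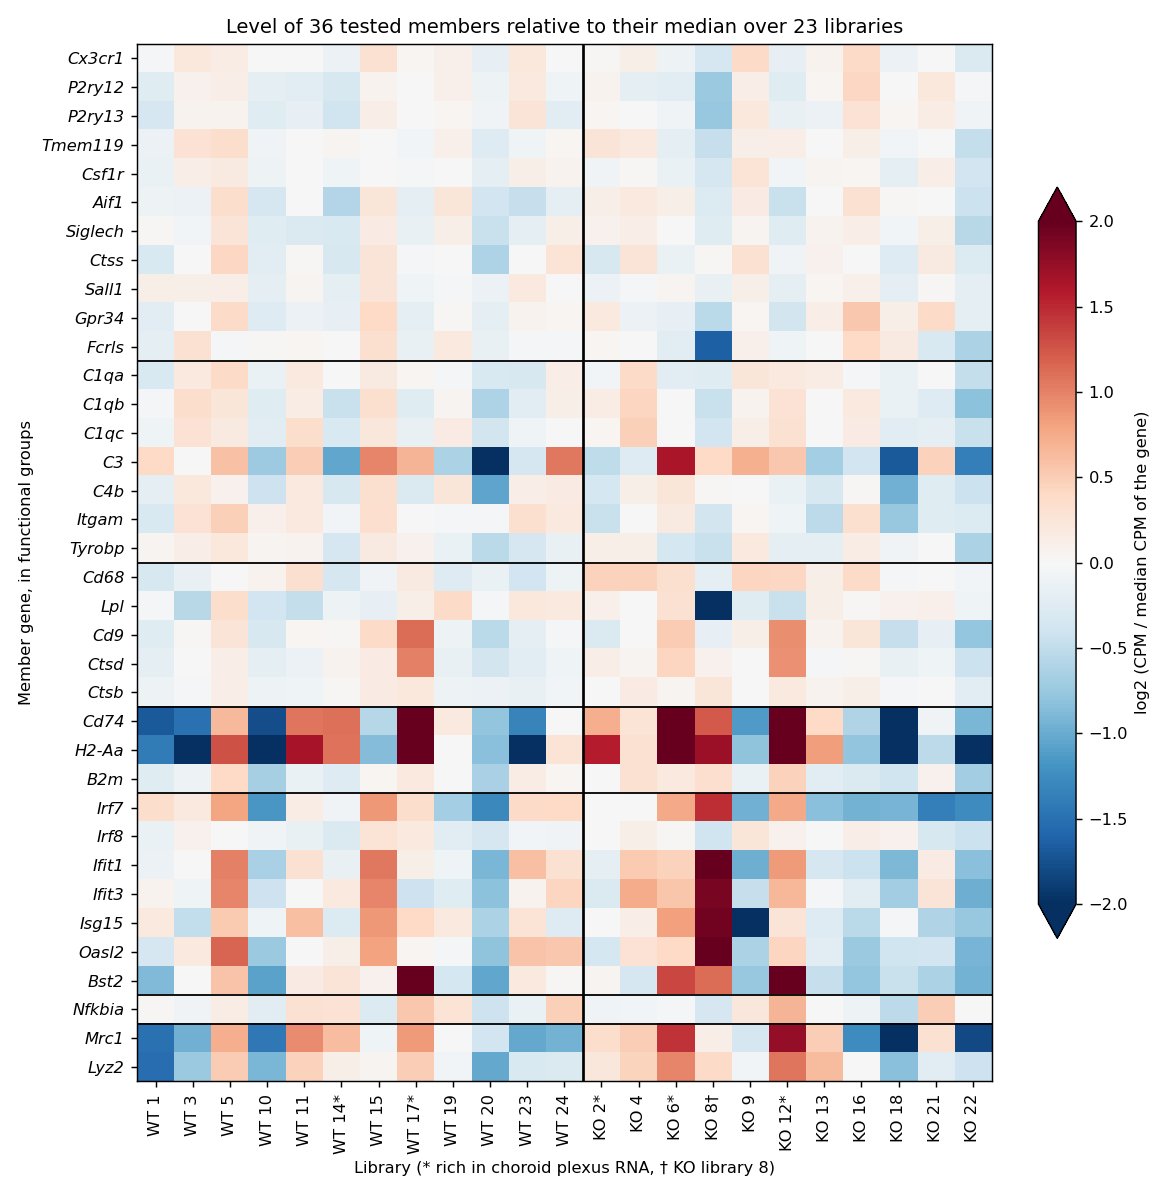
Log2 ratio of CPM to the gene's median over 23 libraries (colour, limited at -2 and 2) for 36 tested members in rows by functional group and WT and KO libraries in columns. At least 3 interferon members are above 1.5 times their median in 5 libraries (5 and 15 of WT, 6, 8 and 12 of KO), and Cd74 and H2-Aa both are in the 5 choroid plexus rich libraries, in WT libraries 5 and 11 and in KO library 8, while most homeostatic genes stay near their median.

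Of the interferon members, 2 pairs were examined and each moved together. Irf7 and Oasl2 had r = 0.87 and rho = 0.92 over the 23 libraries, and Ifit1 and Ifit3 r = 0.94 and rho = 0.89 (permutation p = 1e-05 for each, the smallest possible). Without KO library 8 r was 0.87 and 0.90, without the 5 choroid plexus rich libraries 0.91 and 0.95, and without the 2 libraries farthest from the median of the first gene it was 0.88 and 0.89. Within WT it was 0.85 and 0.88, and within KO 0.89 and 0.97. Of 8 pairs examined, Cx3cr1 and P2ry12 had r = 0.73 (rho 0.76, permutation p = 7e-05). The pair with the weakest relation was Ccl3 and Ccl4, microglial chemokines, at r = 0.32 and rho = -0.09 (permutation p = 0.13 and 0.69). C4b and B2m had r = 0.61 and rho = 0.51, with r = 0.47 and rho = 0.37 without WT library 20 and KO library 18 (permutation p = 0.031 and 0.099). The Benjamini-Hochberg adjusted values over the 8 pairs were 0.13 for r of Ccl3 and Ccl4 and at most 0.0023 for r of the others.

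Leaving out KO library 8 and the choroid plexus rich libraries moved most interferon members below 0, from log2 fold changes that were smaller than their standard errors. In the 17 libraries that were neither choroid plexus rich nor KO 8 (10 WT and 7 KO), 6 of 7 interferon members were below WT and their median log2 fold change was -0.59. It was -0.27 in the 22 libraries without KO 8 only, and 0.0051 in the 18 without the rich libraries only. No member was called in the 17 libraries, where 0.0125% of 15951 genes were, and the smallest adjusted p was 0.506. An unadjusted p below 0.05 was reached by 6 members lower in KO and 1 higher, against 3.91% and 4.14% of all genes, and 8.05% in both directions. The libraries were chosen by their tissue markers, with the interferon values known, and 3 of the 5 libraries with a raised interferon group were KO libraries left out in this way.

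Irf7 (chr7:141262706-141266481) had the largest difference among the interferon members in these 17 libraries. It shares 45 exon bases with Phrf1 on the opposite strand, so its counts are uncertain. Irf7 was at 0.604 to 2.69 CPM in WT (median 1.77) and 0.572 to 1.47 CPM in KO (median 0.761), and all 7 KO libraries were below the WT median though the ranges overlapped. Its log2 fold change was -1.01 (SE 0.294, edgeR p = 0.00278, adjusted p = 0.506), against -0.16 over all 23 libraries and -0.43 without KO library 8. Isg15 was at 0.671 to 1.89 CPM in WT and 0.188 to 1.14 CPM in KO, a log2 fold change of -0.67 (SE 0.264, edgeR p = 0.0204, adjusted p = 0.592). Oasl2 gave -0.65 (SE 0.257, edgeR p = 0.0198, adjusted p = 0.588). Bst2, the membrane tether of virus particles, was at 1.31 to 4.07 CPM in WT and 1.43 to 2.18 CPM in KO, with -0.48 (SE 0.213, edgeR p = 0.0356, adjusted p = 0.614). Ifit1 gave -0.59 (SE 0.279, edgeR p = 0.0479, adjusted p = 0.616), and Ifit3 -0.29 (SE 0.264, edgeR p = 0.279, adjusted p = 0.762). Over all 23 libraries the values of these genes were above 0 but smaller than their standard errors, so they gave no clear direction. They were 0.032 (SE 0.311) for Isg15, 0.099 (SE 0.337) for Oasl2, 0.14 (SE 0.395) for Bst2, 0.24 (SE 0.353) for Ifit1 and 0.21 (SE 0.281) for Ifit3.

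When each of the 17 libraries was left out in turn, Irf7, Isg15, Oasl2, Itgam and Cd68 had an unadjusted p below 0.05 in 17 of 17 fits, and Ifit1 and Bst2 in 7. The largest edgeR p was 0.00763 for Irf7, 0.0427 for Isg15 (without WT library 15) and 0.0444 for Oasl2 (without WT library 5). Adjusted p reached 0.861 for Irf7 and 0.914 for Isg15 and Oasl2. All these fits lack the raised KO libraries 6, 8 and 12, so they cannot test the choice of the 17 libraries. Of the 34 other interferon-responsive genes, 31 were below 0 in the 17 libraries, with a median of -0.22 against -0.0065 for all tested genes. Of the 34, 7 had an unadjusted p below 0.05, each lower in KO, as were 3.91% of all tested genes. Over all 23 libraries 18 of them were below 0, with a median of -0.015, and Stat2, a signal carrier of the interferon receptor, had -0.11 (edgeR p = 0.0234, adjusted p = 0.781). Irf7 and Ctsd lie 1.41 and 0.291 Mb from Ins2 on chromosome 7, and Itgam lies 14.6 Mb from it, whereas Isg15, Oasl2, Bst2, Ifit1 and Ifit3 are on other chromosomes. The part of this position in the Irf7 and Itgam values was not tested.

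**Figure D5:**
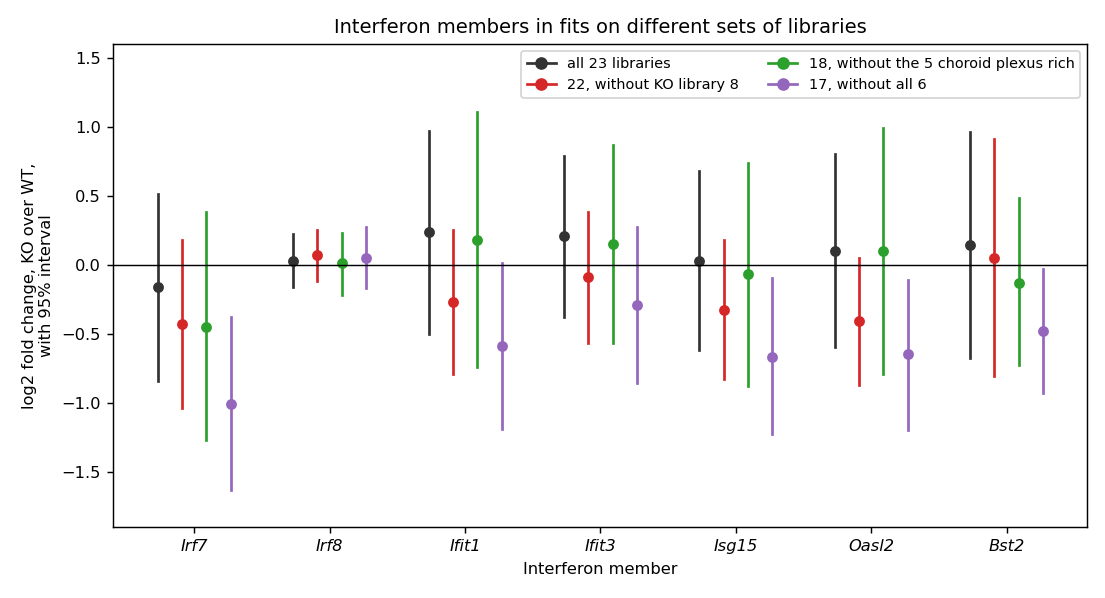
Log2 fold change between KO and WT of the 7 interferon members (points) with 95% intervals (bars) in edgeR fits on 23, 22, 18 and 17 libraries. Except for Irf8, the values move down when both KO library 8 and the choroid plexus rich libraries are left out, and Irf7 reaches -1.01 in 17 libraries.

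The cytokine and chemokine genes were near the detection limit in both genotypes. Il1b, interleukin 1 beta, was at 0 to 0.423 CPM in WT, with 4 of 12 libraries at 0, and 0.0572 to 0.474 CPM in KO. Tnf, tumour necrosis factor, was at 0 in 7 of 12 WT and 6 of 11 KO libraries and reached 0.131 and 0.126 CPM. Ccl3 was at 0.0621 to 0.763 CPM in WT and at 0 in 3 KO libraries, with a KO maximum of 0.356 CPM, and Ccl4 at 0 to 0.359 and 0 to 0.218 CPM. In a fit without the filter the log2 fold changes were 0.55 (SE 0.537) for Il1b, 0.24 (SE 0.687) for Tnf, -0.65 (SE 0.507) for Ccl3 and -0.31 (SE 0.456) for Ccl4, and no difference in these 4 genes was detectable at this depth. Nfkbia, the NF-kB inhibitor that NF-kB itself induces, was well measured at 17.5 to 33.8 CPM in WT (median 24.7) and 16.1 to 37.6 CPM in KO (median 22.8). Its log2 fold change was -0.041 (SE 0.130, 95% interval -0.31 to 0.23, edgeR adjusted p = 0.941). Of 29 other cytokine and NF-kB genes tested, 14 were above 0 and 15 below, and none was called.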

How the data were processed

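RNA-seq libraries labelled as hippocampus, 12 WT and 11 KO, were compared. Gene levels were deposited by the authors as a single table of estimated counts, of which 24.6% to 27.2% of the non-zero values per library were fractional. Per the submitters' processing notes the tools included bcl2fastq and STAR and the build was mm10. Versions, the counting program, its use of strand and the annotation are not given in the sources used here, so genes with near-identical copies or overlapping exons are uncertain. The library kit was stranded, per the labels' protocols.

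Counts were rounded to whole numbers, filtered with edgeR 4.0.16 (filterByExpr, 15828 genes kept), scaled by TMM and tested with glmQLFit and glmQLFTest in R 4.3.3, with Benjamini-Hochberg adjustment over all genes and a threshold of 0.05. Genotype was the only term. Correlations used log2(CPM + 0.5) and 100000 two-sided permutations. Symbols and positions came from GENCODE M21 on GRCm38 (98.8% of identifiers had a symbol), similar transcripts from blastn 2.17.0 (at least 90% identity over 200 bases) and promoters from RefSeq on GRCm38.p6. Depth was 13792274 to 22953261 counts per library.

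All 42 members are named. Of the other pathway genes, up to 2 per list and direction with the smallest unadjusted p below 0.05 are named, and beside them Adgrg1, Cd53, Cyth4, Fcgr3 and Mertk, chosen for KO library 8 after their values were seen. Members, lists, tests and alternatives were chosen with earlier results of these data known. Tested on simulated data of 15712 genes in the same design, the edgeR step called 87 of 100 genes changed by 1 and 60 of 100 changed by 0.5 on the log2 scale. The changed genes were picked at random and no library stood apart, so these rates need not hold for widely spread members. Median standard errors in the data were 0.326 for interferon, 0.563 for antigen presentation, 0.316 for macrophage and 0.0939 for homeostatic members, against 0.0881 for all tested genes. Alternatives were RLE scaling, DESeq2 1.42.0, limma 3.58.1 voom with quality weights, other filters, 1 surrogate variable (sva 3.50.0), choroid plexus or microglial covariates, and fits without libraries that stand apart or without each library in turn.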

Additional observations from a re-analysis of the deposited data

How the results depend on the processing

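No member was called in any alternative, and the smallest adjusted p of a member was 0.132, for Cd68 with limma voom. Genes called over the whole table numbered 2, and 4 with DESeq2, 4 with voom, 1 with a filter on a mean of 50 counts, 1 without the 5 choroid plexus rich libraries, and 1 to 5 when single libraries were left out. Members at an unadjusted p below 0.05 numbered 2, and 4 with voom (Ctsb and Lyz2 beside Itgam and Cd68), 3 with the microglial score as covariate (Lyz2 beside them), 7 without the 5 rich libraries and KO library 8, and 2 to 8 when single libraries were left out, a range that includes 17 fits within that smaller set, which were added after the data were seen. Of 36 members, 12 kept their sign in all fits other than those 17 and 24 did not. The log2 fold change of Cd74 turned from 0.58 to -0.025 with 1 surrogate variable and to -0.15 in the 17 libraries. With single libraries of the 23 left out it ran from 0.11 to 1.05 (1.05 without WT library 17). With single libraries of the 17 left out it ran from -0.34 to 0.12. The log2 fold change of Fcrls ran from -0.21 to -0.052 with single libraries of the 23 left out. Within the 17 libraries it ran from -0.14 to 0.027, the last without KO library 22. For C4b and B2m, r was 0.58 within KO (permutation p = 0.059, adjusted 0.067). For Ccl3 and Ccl4, r was 0.65 within WT (permutation p = 0.032), -0.33 within KO and -0.10 without WT library 15 and KO library 8. The cause of these changes was not tested. No paired analysis was possible because no replicate number occurs in both genotypes. Depth limits Itgax, Cst7, Il1b, Tnf, Ccl3 and Ccl4, which were below the filter over all libraries (Itgax passed it in 4 of the 17 added fits).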
